A study of Mus musculus with 48 samples.

Results

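The Wnt ligands, Frizzled receptors and secreted Wnt modulators of mouse hindlimb muscle were followed across 4 muscles and 2 stages. The genes were taken by symbol: every gene named Wnt, Fzd, Sfrp, Dkk or Rspo with a number, plus Frzb, Lrp5, Lrp6, Axin2, Lgr4 and Lgr5. Of the 27179 genes in the count table, 47 carried such a symbol, and 34 of them had a group mean of at least 1 CPM (the read count scaled to library size) in any of the 8 groups and are described here. These were 10 of 19 ligands, all 10 Frizzled receptors, 2 of 4 R-spondins, both R-spondin receptors, both coreceptors, all 5 secreted Frizzled-related proteins, 2 of 4 Dickkopf proteins, and Axin2. Left out by level were Dkk1, Dkk4, Rspo1, Rspo4, Wnt1, Wnt3, Wnt3a, Wnt7a, Wnt7b, Wnt8a, Wnt8b, Wnt9b and Wnt10a. The member just inside the limit was Wnt6, with a highest group mean of 1.09 CPM, and the member just outside was Wnt9b, with 0.862 CPM.

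Messenger RNA had been sequenced from male mice of the inbred strain FVB/NJ late in gestation (E18.5, an embryonic day) and as adults, with no treatment or engineered allele in any group. Per the labels, soleus and vastus intermedius are rich in slow fibres (slow-biased), and gastrocnemius and vastus lateralis are poor in them (fast-biased). Soleus and gastrocnemius come from the shank and the vastus muscles from the thigh, so each segment holds 1 slow-biased and 1 fast-biased muscle. There were 6 animals per stage and 1 whole-muscle library per animal and muscle, 48 in all.

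Wnt proteins are secreted lipid-modified ligands that bind Frizzled receptors on the cell surface. With the coreceptors Lrp5 or Lrp6 they stabilise beta-catenin, which acts with TCF/LEF factors in the nucleus; with other coreceptors they act on cell polarity and calcium without beta-catenin. R-spondins bind Lgr4 or Lgr5 and keep Frizzled receptors on the membrane, whereas secreted Frizzled-related proteins bind Wnts outside the cell and Dickkopf proteins such as Dkk2 act on Lrp5 and Lrp6. In skeletal muscle the pathway is known for roles in myogenesis, in satellite cells and at the neuromuscular junction.

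The libraries held 14.9 to 32.4 M counts (median 22.9 M), so that 3 counts corresponded to 0.0926 to 0.201 CPM before scaling. One library, labelled adult vastus intermedius of animal B, was left out because it has an embryonic profile, which left 5 libraries in that group and 6 in each other. Among the 34 members its level lay outside the range of the other adult vastus intermedius libraries for 26, and within the E18.5 range of that muscle for 31. Levels are CPM scaled with TMM (trimmed mean of M-values) over the 47 remaining libraries. The scaling factors were 0.536 to 0.932 in adult libraries and 1.20 to 1.52 at E18.5, so any direction between the stages depends on the scaling. Stage changes are given with TMM, and the value with total counts is added where it ends a call or turns a direction. Letters A to F within a stage stand for the 6 collection tags of the count table (a date, with a letter where a date holds several sets). Each tag occurs once per muscle, and its 4 libraries were taken as 1 animal; the labels give 6 animals per stage and do not tie the tags to them. No date held both stages, so stage and date of collection cannot be told apart. Markers of skeletal muscle were present in every library, with a summed level of 85918 to 249525 CPM in adult and 9404 to 37381 CPM in E18.5 muscle.

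The promoters of 4 members are shown because these members differed between slow-biased and fast-biased adult muscle, the result that most of the text turns on, and had an entry in the RefSeq promoter table (build GRCm38.p6, 250 bases before to 50 bases after a gene's start). Wnt5b and Wnt16 were higher in slow-biased adult muscle, and Wnt4 and Fzd7 were higher in fast-biased adult muscle. Wnt16 did not pass between soleus and gastrocnemius alone. The sequences run 5′ to 3′ on the gene's strand, and capitals mark a match to the TCF/LEF motif, searched as CTTTGAA or as CTTTGAT or as CTTTGTA or as CTTTGTT on both strands, letters that overlap the core motif of SOX proteins. The windows are chr6:22287977-22288276 (plus strand) for Wnt16, chr6:119449337-119449636 (minus strand) for Wnt5b, chr4:137277385-137277684 (plus strand) for Wnt4 and chr1:59481897-59482196 (plus strand) for Fzd7.
Wnt16: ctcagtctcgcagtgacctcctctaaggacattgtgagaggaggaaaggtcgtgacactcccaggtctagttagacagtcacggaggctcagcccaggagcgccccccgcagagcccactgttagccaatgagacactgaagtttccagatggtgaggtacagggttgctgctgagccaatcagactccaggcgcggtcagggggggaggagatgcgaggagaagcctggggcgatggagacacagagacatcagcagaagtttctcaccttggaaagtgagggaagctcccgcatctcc
Wnt5b: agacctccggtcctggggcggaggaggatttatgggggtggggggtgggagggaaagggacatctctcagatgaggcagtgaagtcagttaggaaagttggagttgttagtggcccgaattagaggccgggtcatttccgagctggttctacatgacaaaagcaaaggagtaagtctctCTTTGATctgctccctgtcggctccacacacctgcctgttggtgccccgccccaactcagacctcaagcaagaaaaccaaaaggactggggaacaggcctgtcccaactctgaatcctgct
Wnt4: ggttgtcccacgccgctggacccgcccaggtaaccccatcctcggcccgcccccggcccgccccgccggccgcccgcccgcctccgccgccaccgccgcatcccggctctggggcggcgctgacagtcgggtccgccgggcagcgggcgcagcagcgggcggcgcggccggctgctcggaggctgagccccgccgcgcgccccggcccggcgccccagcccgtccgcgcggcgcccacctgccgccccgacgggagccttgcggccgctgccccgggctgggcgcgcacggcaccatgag
Fzd7: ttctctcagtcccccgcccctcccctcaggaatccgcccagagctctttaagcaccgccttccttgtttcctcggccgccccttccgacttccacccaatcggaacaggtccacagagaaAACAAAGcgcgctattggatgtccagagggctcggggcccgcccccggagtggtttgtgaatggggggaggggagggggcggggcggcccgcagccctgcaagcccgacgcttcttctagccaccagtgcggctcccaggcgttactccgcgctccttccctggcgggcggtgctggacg
The Fzd7 match began 130 bases before the start and the Wnt5b match 71 bases before it. Only 1 of the 3 Wnt5b starts listed held a match, and that start is shown because it did. These letters were not in the Wnt4 and Wnt16 windows, each the only start listed for its gene. Over all members, 21 of 34 had an entry, with 24 promoters, and 3 of these (12.5%; Fzd7, Wnt5b and Wnt11) held a TCF/LEF match, against 16.9% of the 32851 promoters in the table. No member promoter matched the MEF2 motif, which 3.19% of all promoters held. The GC content was 84.3% for Wnt4, 66.7% for Fzd7, 58% for Wnt16 and 55% for Wnt5b.

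Per unit of gene length, receptors were the most abundant members. Averaged over the 8 groups, Fzd9 stood at 20.6 CPM per kilobase (kb), Fzd7 at 16.9, Lrp5 at 16.3 and Fzd4 at 16.03, whereas the most abundant ligand, Wnt4, stood at 5.20 and Wnt5a at 4.66. The summed level of the 10 Frizzled receptors was 115 ± 8.01 CPM per kb (SD, n = 6) in adult soleus and had group means of 62.9 to 77.2 in the other 7 groups. The receptor with the highest mean share of this sum differed by group. Fzd2 took 22.7% ± 0.366 of it in E18.5 gastrocnemius, 21.6% ± 1.37 in soleus and 20.1% ± 1.64 in vastus intermedius, and Fzd4 took 21.7% ± 3.11 in vastus lateralis. In the 2 thigh muscles of this stage the next receptor was within that spread, Fzd4 with 18.7% ± 2.49 and Fzd2 with 19.6% ± 1.47. In the adult, Fzd9 took 55.1% ± 2.61 in soleus and 42.3% ± 4.24 in vastus intermedius (n = 5), whereas Fzd7 took 41.6% ± 8.40 in gastrocnemius and 51.6% ± 6.46 in vastus lateralis.

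The ligand with the highest mean share differed by group as well. The 10 ligands together had group means of 20.9 to 29.5 CPM per kb. Wnt4 took 43.1% ± 4.68 (SD, n = 6) of them in adult vastus lateralis and 29.9% ± 5.32 in adult gastrocnemius, Wnt16 took 25.7% ± 9.94 in adult vastus intermedius (n = 5), and Wnt9a took 19.8% ± 2.66 in adult soleus. At E18.5 Wnt5a led in soleus (29.2% ± 5.56) and gastrocnemius (34.9% ± 4.97), and Wnt4 led in vastus intermedius (23.1% ± 10.1) and vastus lateralis (30.6% ± 8.17). In 4 of these groups the next ligand was within the spread: Wnt5b in adult soleus (17.4% ± 2.94), Wnt9a in adult vastus intermedius (20.8% ± 3.10), and Wnt5a in E18.5 vastus intermedius (22.05% ± 5.43) and vastus lateralis (23.8% ± 5.43). Of the secreted Frizzled-related proteins, Sfrp2 led in all 4 muscles at E18.5 (41.4% to 55.0% of the sum) and Frzb had the highest mean share in all 4 adult muscles (29.1% to 72.8%). In adult vastus lateralis Frzb took 29.1% ± 18.2 and Sfrp1 23.4% ± 7.73, a difference within the spread.

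**Figure D1:**
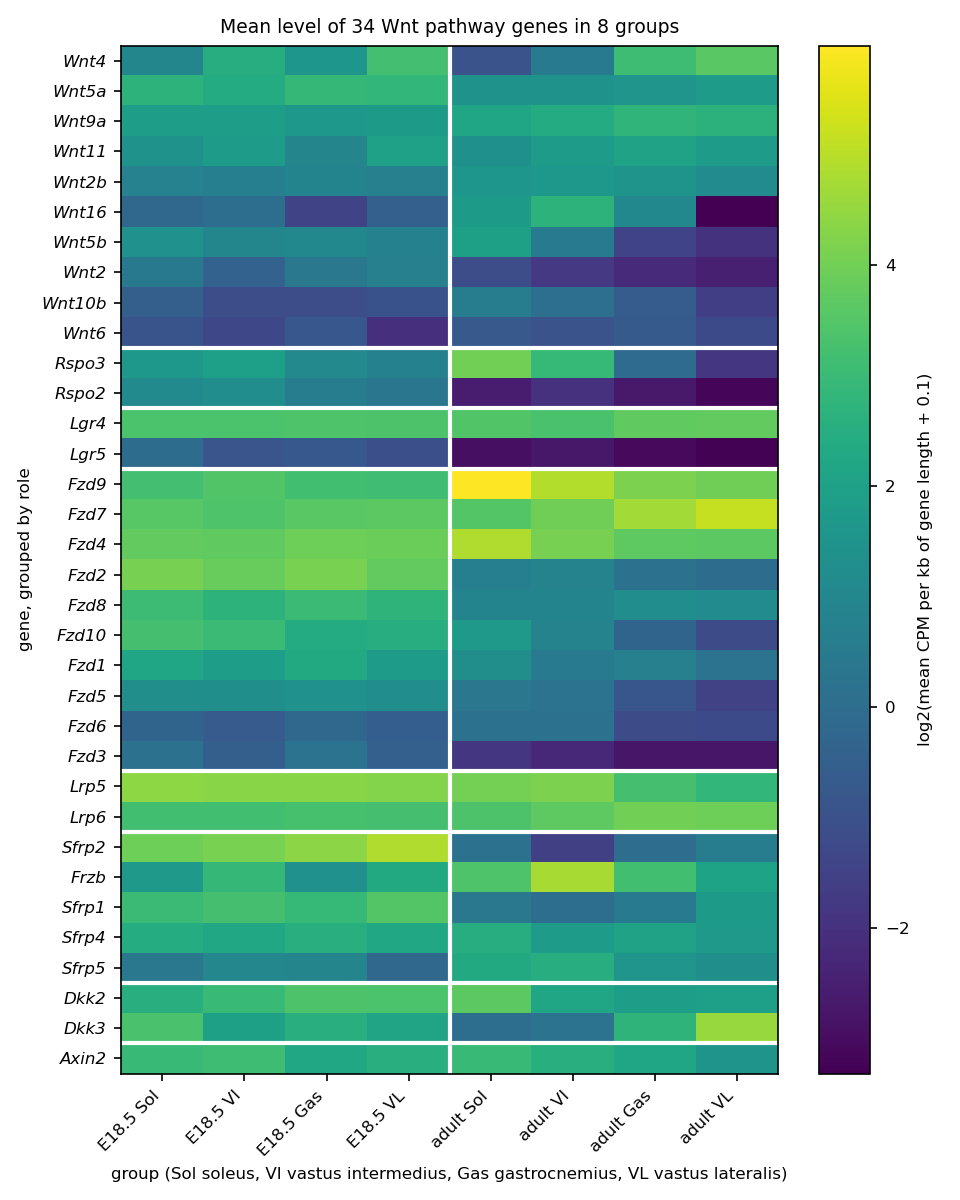
Mean level of the 34 members (rows, grouped by role) in the 8 groups (columns), as log2 of the mean CPM per kb of gene length plus 0.1; colour runs from dark (low) to yellow (high). Fzd9 in adult soleus is the brightest cell, Wnt16 is at 0 in adult vastus lateralis, and Fzd2, Sfrp1, Sfrp2, Lgr5 and Rspo2 are darker in all 4 adult columns than in the E18.5 columns.

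By adjusted p, slow-biased and fast-biased muscles differed for most members in the adult and for 1 member at E18.5. In the adult, 18 of 32 members tested were higher (background 35.9% of all genes) and 10 were lower (background 30.1%) in slow-biased muscle by edgeR's quasi-likelihood test (Benjamini-Hochberg adjusted p under 0.05 over all genes; background 66% in either direction). Most genes of these muscles were called, so the count is read against that share. The members' median log2 fold change was 0.80, against 0.08 over all genes tested. With total counts in place of TMM the split was 20 higher (background 58.5%) and 4 lower (background 13.8%). The median over all genes then moved to 0.41, so directions are relative to the scaling. Lgr5 and Rspo2 were too low in the adult to be tested. For 8 members no slow-biased adult library overlapped any fast-biased one: Rspo3, Wnt5b, Fzd5, Fzd6, Fzd9 and Lrp5 were higher in all slow-biased libraries, and Wnt4 and Dkk3 were lower in all of them. How many of all genes lacked such overlap was not computed, so this number has no background. In bulk RNA, fewer cells of a type and less RNA per cell cannot be told apart.

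At E18.5, 1 of 34 members passed in the same comparison, Fzd10, which was higher (background 0.368% in either direction, 0.146% higher and 0.222% lower). In that edgeR fit 10 of the 34 had an unadjusted p under 0.05. The replicate block, which compares muscles within an animal, and DESeq2 each called 3 members, adding Axin2 and Rspo3. Without animal A, C, D or E the count was 0, and without animal B it was 4. Over all members the median log2 fold change was 0.02, and no member had slow-biased libraries wholly apart from fast-biased ones. The change of the slow to fast difference between the stages, tested as an interaction, passed for 24 of 34 members, 16 positive (background 26.6%) and 8 negative (background 24.2%; 50.8% in either direction; member median 0.69 against 0.08 over all genes). With total counts these were 19 positive (background 49%) and 4 negative (background 9.82%).

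**Figure D2:**
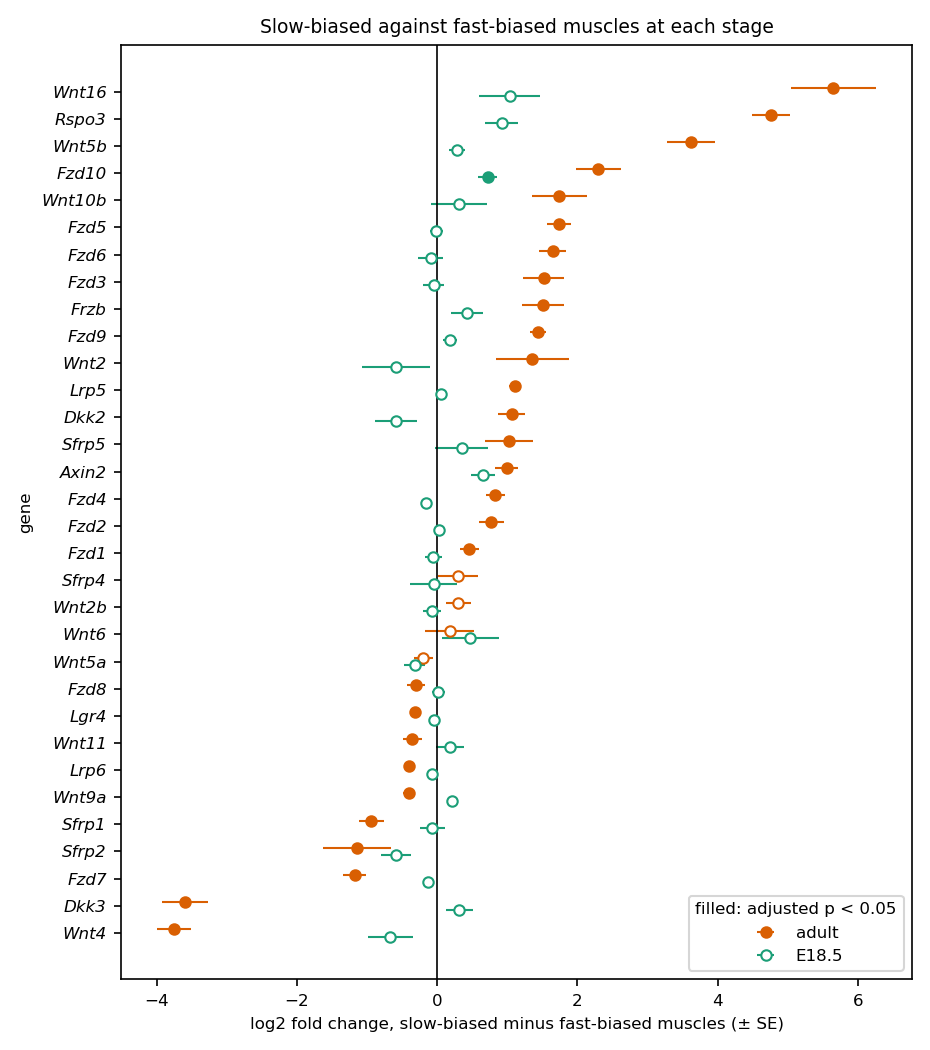
Log2 fold change of slow-biased against fast-biased muscles (x axis, bars are SE) for the 32 members tested in the adult (orange), with the E18.5 value of the same gene (green); filled points passed an adjusted p of 0.05. Adult values run from Wnt4 and Dkk3 on the left to Rspo3 and Wnt16 on the right, Fzd10 is the only filled E18.5 point, and the adult Wnt16 value is a fitted one against a muscle with no counts.

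Both muscle pairs contributed in the adult. Between soleus and gastrocnemius 13 of 32 members were higher (background 27.7%) and 7 lower (25.9%) in soleus (53.5% in either direction). Between vastus intermedius and vastus lateralis 14 were higher (background 27.9%) and 6 lower (24.3%) in vastus intermedius (52.2% in either direction). The member medians were 0.59 and 0.47, against 0.08 and 0.07 over all genes. With total counts the shank pair gave 17 higher (background 52.7%) and 3 lower (11.2%). The thigh pair then gave 17 higher (43.5%) and 5 lower (12%). At E18.5 the shank pair gave 1 call, Fzd10, higher in soleus (background 0.286%, with 0.0952% higher and 0.19% lower), and 6 at an unadjusted edgeR p under 0.05. The thigh pair gave 0 by edgeR and 0 by DESeq2 (background 0.0317%), and 8 at an unadjusted edgeR p under 0.05. Without animal B the thigh pair gave 1, Rspo3. Each member was assigned to the adult muscle with its highest mean. By this, 14 members peaked in soleus, 8 in vastus intermedius, 7 in vastus lateralis and 5 in gastrocnemius. These counts were not tested, and the shares over all genes were not computed.

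The 2 adult pairs differed from each other, by a test of the difference of their fold changes, for 5 of 32 members (background 8.1%). Dkk2, Fzd9 and Sfrp1 had the higher value in the shank pair (background 1.94%), and Frzb and Wnt16 in the thigh pair (background 6.16%). The replicate block and DESeq2 each called 8 members, and with the left-out library under its label 1 member passed; without animal B or without animal D the count was 3. The same test at E18.5 called 0 members with edgeR and 0 with DESeq2 (2 at an unadjusted edgeR p under 0.05; background 0%).

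**Figure D3:**
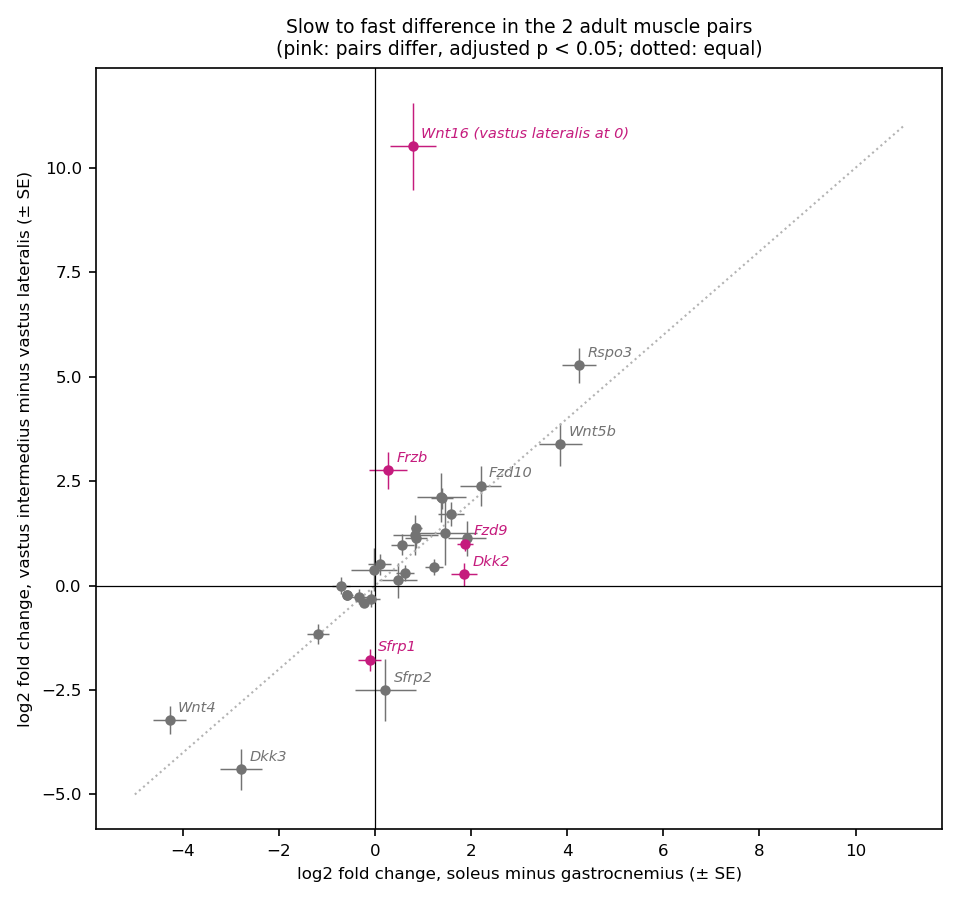
Log2 fold change of soleus against gastrocnemius (x axis) and of vastus intermedius against vastus lateralis (y axis) in the adult, with SE bars, for the 32 members tested; pink points are the 5 members whose pairs differ, and the dotted line marks equal values. Rspo3 and Wnt5b lie at the upper right and Wnt4 and Dkk3 at the lower left in both pairs, Frzb lies above the line and Sfrp1 below it, and the fitted height of Wnt16 depends on the prior count because vastus lateralis had no counts.

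The levels of single members follow by role. For each group the lowest, the median and the highest library are given in that order, in CPM. Wnt4 (chr4:137277635-137299501 in mm10), a ligand that is known to repress myostatin signalling in muscle, marked the fast-biased muscles of the adult. Adult Wnt4 levels were 0.927, 1.73 and 2.09 in soleus, 0.878, 4.49 and 9.06 in vastus intermedius, 24.8, 31.6 and 41.8 in gastrocnemius and 36.8, 46.4 and 59.2 in vastus lateralis. No slow-biased library reached the lowest fast-biased one, and the log2 fold change of slow against fast was -3.75 ± 0.24 (SE; adjusted p = 2.99e-12). E18.5 Wnt4 levels were 1.47, 6.28 and 15.3 in soleus, 8.09, 19.9 and 38.2 in vastus intermedius, 5.42, 9.73 and 17.5 in gastrocnemius and 15.0, 37.3 and 50.9 in vastus lateralis. Here the slow to fast difference was -0.67 ± 0.32 (SE; adjusted p = 0.456), and the thigh stood above the shank instead, with 1.62 ± 0.33 (SE; adjusted p = 7.72e-04). The stages differed in this contrast by -3.11 ± 0.43 (SE; adjusted p = 7.31e-08). From E18.5 to adult Wnt4 fell in soleus (-2.14) and vastus intermedius (-2.09) and rose in gastrocnemius (1.55 ± 0.23, SE; adjusted p = 9.89e-06), a rise that became 0.45 and lost its call with total counts.

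Wnt16 (chr6:22288178-22298522), a ligand best known from bone and joint, was present in adult vastus intermedius and at 0 in adult vastus lateralis. Adult Wnt16 levels were 3.82, 4.92 and 7.42 in soleus, 4.71, 11.03 and 15.6 in vastus intermedius, 0.492, 3.38 and 6.59 in gastrocnemius and 0 in each library of vastus lateralis. All 6 vastus lateralis libraries were at 0 counts, where 3 counts would equal 0.213 CPM on average. Wnt16 was therefore at least 50.7-fold higher in vastus intermedius, at least 25.6-fold higher in soleus and at least 15.1-fold higher in gastrocnemius. Adult gastrocnemius varied between animals, with 0.492, 6.59, 4.88, 0.501, 4.91 and 1.87 CPM in animals A to F. The slow to fast contrast passed (adjusted p = 1.18e-07), as did the difference of the pairs (adjusted p = 1.08e-04), with fitted folds that depend on the prior count. Soleus against gastrocnemius alone gave 0.79 ± 0.47 (SE; adjusted p = 0.164). E18.5 Wnt16 levels were 0.286, 0.903 and 3.06 in soleus, 0.318, 1.29 and 2.95 in vastus intermedius, 0.0214, 0.419 and 1.18 in gastrocnemius and 0.476, 0.985 and 1.76 in vastus lateralis, with all 4 muscles overlapping. From E18.5 to adult Wnt16 rose by 2.06 ± 0.48 in soleus, 2.83 ± 0.45 in vastus intermedius and 2.81 ± 0.70 in gastrocnemius on the log2 scale, rises that passed with total counts too. In vastus lateralis it was at least 4.95-fold lower in the adult. Of 5 muscle spindle markers, 3 were higher in slow-biased adult muscle and 2 were higher in vastus intermedius than in vastus lateralis. Their summed level was 1369 to 3605 CPM in adult soleus, 402 to 1406 in vastus intermedius, 9.98 to 211 in gastrocnemius and 6.13 to 14.2 in vastus lateralis, highest in soleus, whereas the Wnt16 median was higher in vastus intermedius. Their part in the result was not tested.

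Wnt5b (chr6:119432531-119544824), a ligand mostly tied to beta-catenin-independent signalling, was the slow-biased counterpart of Wnt4 in the adult. Adult Wnt5b levels were 6.34, 9.53 and 10.98 in soleus, 1.72, 3.26 and 4.80 in vastus intermedius, 0.0716, 0.683 and 1.05 in gastrocnemius and 0, 0.214 and 1.25 in vastus lateralis. Every slow-biased library was above every fast-biased one, with a slow to fast change of 3.62 ± 0.34 (SE; adjusted p = 1.97e-09). E18.5 Wnt5b levels were 5.39, 5.82 and 6.98 in soleus, 3.08, 4.07 and 6.03 in vastus intermedius, 3.75, 4.41 and 5.42 in gastrocnemius and 2.90, 3.74 and 4.87 in vastus lateralis, a narrow band in which soleus was higher than gastrocnemius in 6 of 6 animals without passing (0.38 ± 0.16, SE; adjusted p = 0.472). The stage changes were 0.62 ± 0.14 in soleus, -2.84 ± 0.32 in gastrocnemius, -0.39 ± 0.29 in vastus intermedius and -3.58 ± 0.52 in vastus lateralis. The fall passed in gastrocnemius (adjusted p = 4.87e-07) and vastus lateralis (adjusted p = 1.52e-05). The soleus rise (adjusted p = 7.32e-04) became -0.066 with total counts.

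Wnt10b and Wnt2 were low ligands that were also higher in slow-biased adult muscle. Wnt10b, a beta-catenin ligand known to hold back fat formation, had adult levels of 1.22, 3.11 and 5.33 in soleus, 1.11, 1.81 and 3.97 in vastus intermedius, 0.0814, 1.53 and 1.86 in gastrocnemius and 0.0639, 0.411 and 1.08 in vastus lateralis. Its slow to fast change was 1.75 ± 0.39 (SE; adjusted p = 3.83e-04), and at E18.5 it was 0.31 ± 0.40 (SE; adjusted p = 0.873) with levels of 0.400, 1.29 and 2.55 in soleus, 0.190, 0.644 and 1.84 in vastus intermedius, 0.515, 0.638 and 1.40 in gastrocnemius and 0.116, 0.532 and 2.91 in vastus lateralis. Wnt2, a ligand of the beta-catenin branch, had adult levels of 0.523, 0.695 and 1.16 in soleus, 0.0725, 0.444 and 0.768 in vastus intermedius, 0, 0.105 and 0.781 in gastrocnemius and 0, 0.0951 and 0.560 in vastus lateralis and E18.5 levels of 0.610, 2.59 and 5.82 in soleus, 0.254, 1.09 and 4.28 in vastus intermedius, 2.14, 2.49 and 3.04 in gastrocnemius and 0.249, 1.18 and 11.7 in vastus lateralis. Its adult slow to fast change of 1.36 ± 0.52 (SE; adjusted p = 0.0241) no longer passed without animal A or without animal C. Its stage difference passed (adjusted p = 0.0371), but with the replicate block the adjusted p was 0.0618, and for Wnt10b it moved from 0.0384 to 0.0975.

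The other 5 ligands differed little between adult muscles. Wnt9a and Wnt11 were lower in slow-biased muscle, with log2 fold changes of -0.41 ± 0.08 and -0.36 ± 0.14 (SE), and both values lost their calls with total counts, at -0.066 and -0.021; the Wnt11 call was also lost without animal A, B or C. Adult Wnt9a levels were 11.1, 14.8 and 17.2 in soleus, 13.9, 17.3 and 20.6 in vastus intermedius, 18.98, 22.5 and 23.8 in gastrocnemius and 18.004, 20.1 and 24.7 in vastus lateralis, and E18.5 Wnt9a levels were 10.7, 12.0 and 14.1 in soleus, 10.3, 12.0 and 13.7 in vastus intermedius, 8.85, 9.97 and 10.9 in gastrocnemius and 9.37, 10.1 and 13.3 in vastus lateralis. The Wnt9a contrast changed between the stages by -0.66 ± 0.11 (SE; adjusted p = 1.47e-06). Wnt11, a ligand of cell polarity in the embryo, was higher in thigh than shank at E18.5 (0.77 ± 0.20, SE; adjusted p = 0.00618), with levels of 4.70, 7.43 and 9.56 in soleus, 5.81, 10.6 and 12.5 in vastus intermedius, 1.93, 5.001 and 8.67 in gastrocnemius and 7.44, 10.1 and 16.1 in vastus lateralis. Adult Wnt11 levels were 4.93, 6.27 and 10.6 in soleus, 5.60, 10.8 and 11.1 in vastus intermedius, 7.87, 11.2 and 14.1 in gastrocnemius and 7.04, 9.16 and 11.9 in vastus lateralis, without that order: the thigh to shank value was 0.10 ± 0.14 (SE; adjusted p = 0.664). Wnt5a, a ligand of limb outgrowth and cell polarity, fell in all 4 muscles, from E18.5 group means of 22.7 to 31.8 CPM to adult means of 11.2 to 14.7. Its adult slow to fast value was -0.19 ± 0.13 (SE; adjusted p = 0.204). Wnt2b rose in soleus, vastus intermedius and gastrocnemius, from means of 5.39 to 6.28 CPM at E18.5 to 9.86 to 10.9 in the adult. With total counts no Wnt2b rise passed, and gastrocnemius passed as a fall (-0.45). Wnt6, at 0.299 to 1.09 CPM, did not pass between the stages in any muscle, and at E18.5 it was lower in the thigh (-1.11 ± 0.41, SE; adjusted p = 0.0460), a call lost with the replicate block (adjusted p = 0.0768) and without animal A, B, D or F.

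Of the R-spondins, Rspo3 became a marker of slow-biased adult muscle and Rspo2 fell to near 0. Rspo3 (chr10:29453106-29535867) is a secreted amplifier of Wnt signalling that is known from blood vessel growth. Adult Rspo3 levels were 30.96, 37.8 and 49.4 in soleus, 12.3, 14.04 and 27.5 in vastus intermedius, 0.351, 2.50 and 3.46 in gastrocnemius and 0, 0.519 and 0.591 in vastus lateralis. The lowest slow-biased library exceeded the highest fast-biased one, and the slow to fast change was 4.76 ± 0.27 (SE; adjusted p = 5.73e-13). E18.5 Rspo3 levels were 5.79, 6.83 and 9.51 in soleus, 2.48, 7.63 and 16.98 in vastus intermedius, 2.74, 5.08 and 5.67 in gastrocnemius and 2.29, 3.20 and 7.40 in vastus lateralis. Soleus stood above gastrocnemius in all 6 animals there without overlap, but the slow to fast change was 0.92 ± 0.23 (SE; adjusted p = 0.0758), which among the alternatives passed with DESeq2 (adjusted p = 0.00755), with the replicate block (adjusted p = 0.0488) and without animal B (adjusted p = 0.00386). Stage changes were 2.38 ± 0.16 in soleus, -1.22 ± 0.39 in gastrocnemius, 1.05 ± 0.39 in vastus intermedius and -3.07 ± 0.42 in vastus lateralis, so Rspo3 rose in the slow-biased and fell in the fast-biased muscles. The vastus intermedius rise (adjusted p = 0.0242) was lost without adult animal C or D, without E18.5 animal E or F, with the left-out library and with total counts. Endothelial markers moved the same way in the adult: 7 of 7 were higher in slow-biased muscle, with summed levels of 662 to 963 CPM in slow-biased and 298 to 623 CPM in fast-biased libraries, and their part was not tested.

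Rspo2, the other R-spondin, is known for limb and neuromuscular junction development. E18.5 Rspo2 levels were 2.20, 5.29 and 12.8 in soleus, 2.69, 7.53 and 13.3 in vastus intermedius, 3.74, 4.63 and 6.11 in gastrocnemius and 2.89, 3.95 and 5.23 in vastus lateralis. Adult Rspo2 levels were 0.0580, 0.249 and 0.289 in soleus, 0.106, 0.580 and 1.04 in vastus intermedius, 0, 0.195 and 0.407 in gastrocnemius and 0, 0 and 0.224 in vastus lateralis, with 4 counts over all 6 vastus lateralis libraries. It fell in every muscle, with log2 changes of -4.98 ± 0.50 in soleus, -4.72 ± 0.38 in gastrocnemius, -3.90 ± 0.53 in vastus intermedius and -6.34 ± 0.59 in vastus lateralis. The receptor Lgr5, a stem cell marker in several epithelia, moved alike, from E18.5 levels of 2.91, 3.85 and 6.46 in soleus, 0.534, 1.37 and 5.996 in vastus intermedius, 1.43, 1.82 and 4.95 in gastrocnemius and 0.356, 1.59 and 4.10 in vastus lateralis to adult levels of 0, 0.125 and 0.416 in soleus, 0, 0.145 and 0.777 in vastus intermedius, 0, 0.0621 and 0.286 in gastrocnemius and 0, 0 and 0.0984 in vastus lateralis. Adult gastrocnemius held 7 Lgr5 counts in all and adult vastus lateralis 2, against 384 at E18.5 in the latter muscle, a ratio of 88.8 once each count is divided by the TMM-scaled library sizes of its group (95% exact interval of counting error 24.4 to 736). Stage changes of Lgr5 were -4.88 ± 0.50 in soleus, -4.80 ± 0.58 in gastrocnemius, -3.07 ± 0.81 in vastus intermedius and -6.12 ± 0.85 in vastus lateralis. Lgr4, the broadly expressed receptor, stood at means of 49.9 to 67.5 CPM in all 8 groups. Its levels in adult muscle were 50.9, 55.1 and 58.6 in soleus, 44.1, 46.2 and 61.4 in vastus intermedius, 58.2, 64.8 and 74.2 in gastrocnemius and 58.7, 67.3 and 77.3 in vastus lateralis and at E18.5 39.7, 48.3 and 65.5 in soleus, 45.5, 51.1 and 56.4 in vastus intermedius, 48.6, 52.1 and 63.2 in gastrocnemius and 48.1, 52.2 and 56.9 in vastus lateralis. It was lower in slow-biased adult muscle, with -0.32 ± 0.06 (SE), a value that became 0.0084 with total counts.

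Among the Frizzled receptors, Fzd9 and Fzd7 changed in opposite directions between adult muscle types. Fzd9 (chr5:135248938-135251047) is known from the neuromuscular junction and bone. Adult Fzd9 levels were 121, 135 and 145 in soleus, 50.1, 64.9 and 77.1 in vastus intermedius, 20.5, 39.9 and 48.6 in gastrocnemius and 23.03, 32.9 and 42.2 in vastus lateralis. The soleus libraries stood above all others, and the vastus intermedius libraries above every fast-biased one, with a slow to fast change of 1.439 ± 0.12 (SE; adjusted p = 2.46e-10). The soleus pair differed by 1.88 ± 0.17 and the vastus pair by 0.9998 ± 0.17, and the difference of the pairs passed (adjusted p = 0.0220) but not without animal B, D, E or F. E18.5 Fzd9 levels were 16.2, 19.3 and 23.4 in soleus, 17.9, 23.2 and 29.3 in vastus intermedius, 13.7, 19.8 and 24.6 in gastrocnemius and 14.7, 18.6 and 21.7 in vastus lateralis, with a slow to fast value of 0.18 ± 0.10 (SE; adjusted p = 0.502). Fzd9 was the only member to rise in all 4 muscles, by 2.78 ± 0.09 in soleus, 0.95 ± 0.19 in gastrocnemius, 1.51 ± 0.14 in vastus intermedius and 0.83 ± 0.14 in vastus lateralis (background 26.2% of genes higher in all 4). With total counts the soleus and vastus intermedius rises remained at 2.10 and 0.75, and the others turned to -0.14 and -0.23.

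Fzd7 (chr1:59482147-59486955) is a receptor of satellite cells and muscle fibres, known to bind Wnt7a. Adult Fzd7 levels were 29.2, 50.1 and 104 in soleus, 54.0, 73.7 and 90.9 in vastus intermedius, 98.0, 110.0 and 162 in gastrocnemius and 127, 175 and 202 in vastus lateralis. Each of 6 soleus libraries was below the gastrocnemius library of the same animal, and each of 5 vastus intermedius libraries below its vastus lateralis library. The slow to fast change was -1.17 ± 0.16 (SE; adjusted p = 1.20e-06), and it was -0.13 ± 0.08 (SE; adjusted p = 0.650) at E18.5, where levels were 44.0, 58.6 and 64.1 in soleus, 47.3, 50.9 and 57.3 in vastus intermedius, 50.1, 59.0 and 63.0 in gastrocnemius and 38.5, 58.7 and 76.8 in vastus lateralis. The stages differed in this contrast by -1.08 ± 0.19 (SE; adjusted p = 5.98e-06). The Fzd7 rise in vastus lateralis was 1.501 ± 0.16 (SE; adjusted p = 3.46e-07) and passed with total counts at 0.45. The gastrocnemius rise of 1.101 ± 0.13 became -2.22e-04, and the vastus intermedius rise of 0.58 ± 0.12 became -0.19. Of the satellite cell markers 6 of 6 were higher in slow-biased adult muscle, with summed levels of 156 to 210.1 CPM in slow-biased and 127 to 168 CPM in fast-biased libraries.

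**Figure D4:**
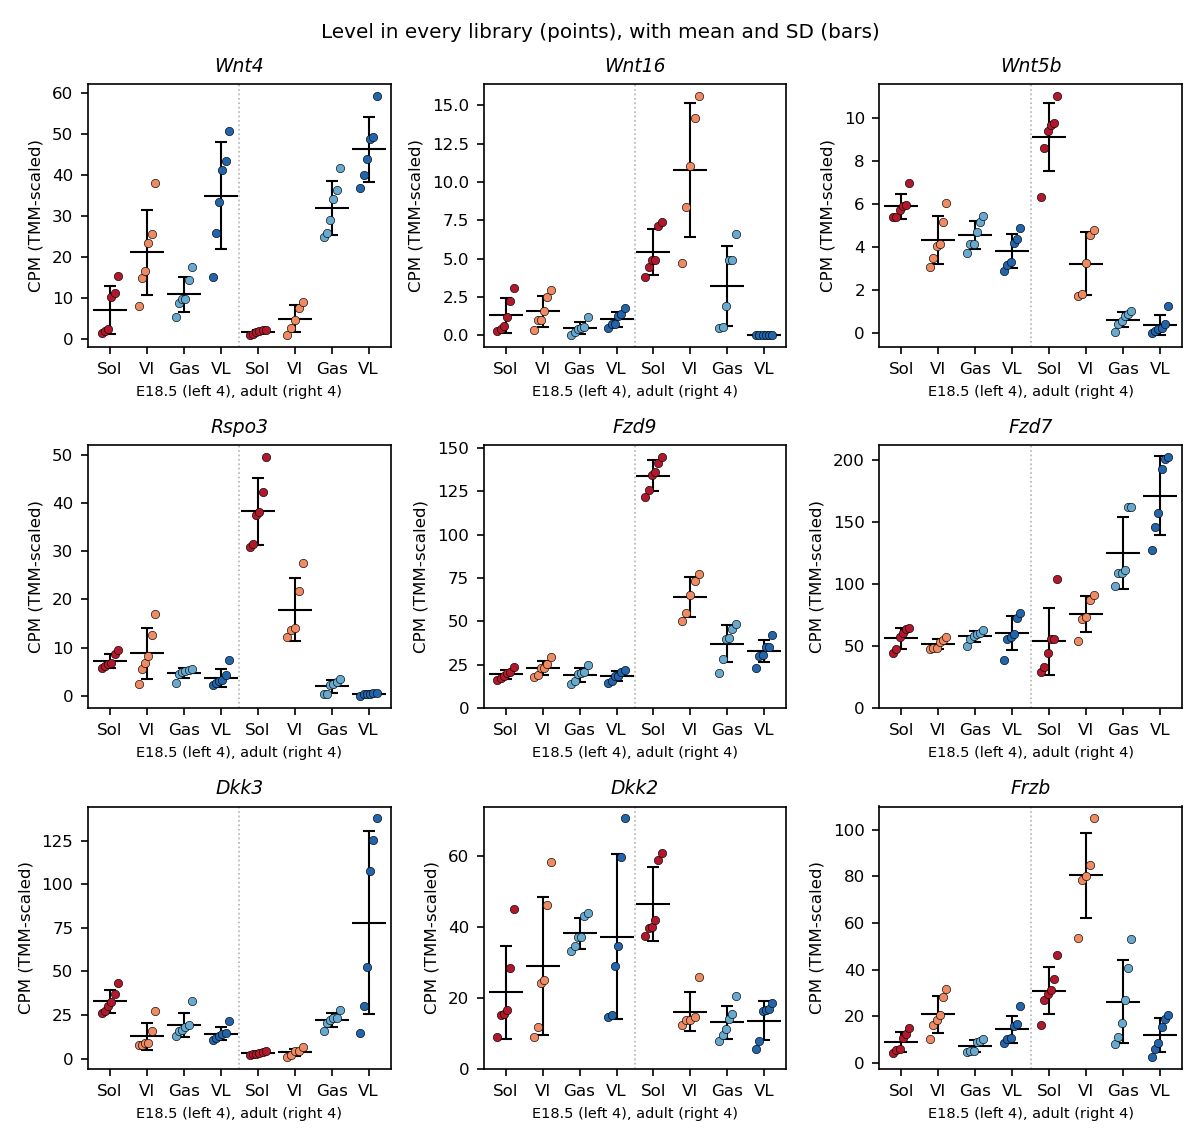
CPM of 9 members in every library (points), with group mean and SD (bars), for E18.5 (left of the dotted line) and adult (right) soleus (Sol), vastus intermedius (VI), gastrocnemius (Gas) and vastus lateralis (VL); linear axes. Wnt16 is at 0 in all 6 adult vastus lateralis libraries, Rspo3 and Fzd9 stand apart in adult soleus, and Dkk3 in adult vastus lateralis spreads from 14.8 to 138 CPM.

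Fzd10, Fzd5, Fzd6 and Fzd3 were higher in slow-biased adult muscle from low levels. Fzd10 is a receptor of the beta-catenin branch. Adult Fzd10 levels were 6.13, 10.1 and 11.4 in soleus, 1.52, 4.60 and 8.41 in vastus intermedius, 0.0703, 2.45 and 3.20 in gastrocnemius and 0.443, 1.08 and 1.58 in vastus lateralis, with a slow to fast change of 2.297 ± 0.32 (SE; adjusted p = 1.11e-06). E18.5 Fzd10 levels were 21.7, 27.99 and 34.5 in soleus, 13.5, 24.5 and 35.7 in vastus intermedius, 12.0, 16.6 and 17.6 in gastrocnemius and 11.3, 16.5 and 21.2 in vastus lateralis. Here soleus was above gastrocnemius in all 6 animals without overlap. The slow to fast change of 0.72 ± 0.13 (SE; adjusted p = 0.0126) did not pass without animal A, C, D or E (adjusted p up to 0.108), and the soleus pair (0.87 ± 0.19, SE; adjusted p = 0.0390) passed in no fit that left out an animal.

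Fzd5 is a receptor with known roles in the eye, gut and vessels of the yolk sac. Adult Fzd5 levels were 5.65, 8.46 and 9.53 in soleus, 4.50, 7.71 and 9.44 in vastus intermedius, 1.83, 3.32 and 4.37 in gastrocnemius and 1.07, 1.68 and 2.73 in vastus lateralis, against 10.98, 15.6 and 23.1 in soleus, 14.6, 16.2 and 19.3 in vastus intermedius, 15.1, 17.7 and 18.54 in gastrocnemius and 11.1, 16.3 and 18.9 in vastus lateralis at E18.5. Its slow to fast changes were 1.74 ± 0.17 in the adult and -0.01 ± 0.09 at E18.5. Fzd6, a receptor of planar polarity, had adult levels of 3.38, 4.33 and 4.79 in soleus, 2.54, 4.50 and 5.05 in vastus intermedius, 0.938, 1.38 and 2.22 in gastrocnemius and 0.474, 1.26 and 2.25 in vastus lateralis and E18.5 levels of 1.504, 2.87 and 4.65 in soleus, 1.58, 2.28 and 2.98 in vastus intermedius, 2.29, 2.96 and 4.63 in gastrocnemius and 1.66, 2.09 and 3.67 in vastus lateralis. Its slow to fast change was 1.65 ± 0.20 (SE; adjusted p = 8.72e-08), and no slow-biased adult library of Fzd5 or Fzd6 overlapped a fast-biased one. Fzd3, a receptor of axon guidance, had adult levels of 1.28, 1.64 and 5.40 in soleus, 0.725, 1.54 and 1.59 in vastus intermedius, 0.244, 0.530 and 0.914 in gastrocnemius and 0.197, 0.678 and 1.01 in vastus lateralis and E18.5 levels of 9.11, 12.3 and 19.6 in soleus, 5.10, 7.64 and 10.4 in vastus intermedius, 10.6, 11.4 and 24.7 in gastrocnemius and 6.41, 6.97 and 11.1 in vastus lateralis. It was higher in slow-biased adult muscle by 1.52 ± 0.29 (SE), and at E18.5 it was lower in the thigh (-0.77 ± 0.15, SE; adjusted p = 6.06e-04).

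Fzd2, Fzd8 and Fzd1 were lower in the adult than at E18.5 in all 4 muscles (background 31.1% of genes), as were Fzd3, Fzd5 and Fzd10. Fzd2, known for Wnt5a signalling in craniofacial and limb growth, had E18.5 levels of 55.9, 60.6 and 67.03 in soleus, 43.3, 51.6 and 57.9 in vastus intermedius, 59.9, 62.3 and 65.9 in gastrocnemius and 41.2, 49.6 and 54.2 in vastus lateralis and adult levels of 3.999, 5.57 and 7.17 in soleus, 3.26, 6.46 and 8.51 in vastus intermedius, 2.85, 3.94 and 4.74 in gastrocnemius and 1.87, 2.89 and 5.62 in vastus lateralis. The ranges of the stages were far apart in every muscle, and Fzd2 fell with log2 changes of -3.45 ± 0.12 in soleus, -4.04 ± 0.11 in gastrocnemius, -3.04 ± 0.20 in vastus intermedius and -3.98 ± 0.20 in vastus lateralis. The 10 fibroblast and fibro-adipogenic progenitor markers went both ways: 4 were higher in the adult and 5 or 6 lower in soleus, vastus intermedius and gastrocnemius, and 3 were higher and 6 lower in vastus lateralis. Among those that fell were the collagen genes Col1a1, Col1a2 and Col3a1, and among those that rose Ly6a and Pi16. The sum was 1124 to 3507 CPM in the adult against 10743 to 24683 CPM at E18.5. The 5 cell cycle markers were lower in all 4 muscles, with sums of 1.37 to 9.99 CPM against 504 to 838 CPM; their part was not tested. Fzd8 levels were 22.1, 28.7 and 33.2 in soleus, 15.96, 21.1 and 26.97 in vastus intermedius, 23.4, 26.7 and 30.5 in gastrocnemius and 17.5, 22.1 and 27.2 in vastus lateralis at E18.5 and 5.04, 5.85 and 6.92 in soleus, 5.22, 5.71 and 6.42 in vastus intermedius, 5.11, 8.08 and 9.16 in gastrocnemius and 5.03, 6.62 and 10.9 in vastus lateralis in the adult. Its adult slow to fast change of -0.30 ± 0.12 (SE) turned to 0.044 with total counts and was lost without animal C, D, E or F. Fzd1 levels were 12.5, 18.1 and 28.3 in soleus, 13.3, 14.6 and 23.3 in vastus intermedius, 18.6, 20.6 and 26.6 in gastrocnemius and 11.7, 14.6 and 20.5 in vastus lateralis at E18.5 and 8.21, 10.1 and 12.4 in soleus, 4.21, 4.99 and 9.55 in vastus intermedius, 5.99, 6.60 and 8.80 in gastrocnemius and 3.87, 4.44 and 6.95 in vastus lateralis in the adult, with a slow to fast change of 0.46 ± 0.14 (SE) that was lost without animal C. Fzd4, the endothelial receptor of Norrin, was highest in adult soleus. Adult Fzd4 levels were 78.9, 106 and 157 in soleus, 49.7, 64.0 and 71.5 in vastus intermedius, 35.3, 43.3 and 69.1 in gastrocnemius and 29.9, 45.2 and 60.3 in vastus lateralis, against 42.8, 51.01 and 53.1 in soleus, 40.3, 48.7 and 56.3 in vastus intermedius, 50.4, 57.0 and 62.5 in gastrocnemius and 44.98, 52.7 and 64.3 in vastus lateralis at E18.5. Its slow to fast change was 0.83 ± 0.13 (SE; adjusted p = 8.90e-06).

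The coreceptors parted in the adult: Lrp5 followed the slow-biased muscles and Lrp6 did not. Adult Lrp5 levels were 74.4, 83.5 and 96.8 in soleus, 71.9, 96.7 and 98.1 in vastus intermedius, 35.99, 47.4 and 62.7 in gastrocnemius and 31.998, 35.1 and 41.1 in vastus lateralis. Its slow-biased libraries were all above its fast-biased ones, with a change of 1.11 ± 0.09 (SE; adjusted p = 5.81e-11). E18.5 Lrp5 levels were 95.5, 108 and 120.1 in soleus, 85.9, 103 and 121 in vastus intermedius, 89.3, 106 and 117 in gastrocnemius and 79.0, 96.1 and 121 in vastus lateralis, with a slow to fast value of 0.06 ± 0.06 (SE; adjusted p = 0.846). The stage changes of Lrp5 were -0.36 ± 0.09 in soleus, -1.14 ± 0.13 in gastrocnemius, -0.13 ± 0.10 in vastus intermedius and -1.45 ± 0.10 in vastus lateralis, and the fall did not pass in vastus intermedius (adjusted p = 0.256), where it passed with total counts (-0.89). Adult Lrp6 levels were 88.6, 94.7 and 116 in soleus, 96.5, 113 and 148 in vastus intermedius, 137, 146 and 163 in gastrocnemius and 113, 147 and 155 in vastus lateralis, lower in slow-biased muscle with a log2 change of -0.40 ± 0.07 (SE). With total counts that value was -0.072 and did not pass. E18.5 Lrp6 levels were 65.1, 81.6 and 113 in soleus, 63.7, 85.8 and 97.8 in vastus intermedius, 75.8, 90.1 and 102 in gastrocnemius and 76.5, 86.5 and 98.9 in vastus lateralis.

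Of the secreted Frizzled-related proteins, Frzb rose with age in 3 muscles, while Sfrp1 and Sfrp2 fell in all 4. Frzb (chr2:80411970-80447396), a Wnt antagonist first known from cartilage, had adult levels of 16.3, 30.5 and 46.1 in soleus, 53.8, 80.0 and 105 in vastus intermedius, 8.29, 22.1 and 53.4 in gastrocnemius and 2.56, 12.0 and 20.6 in vastus lateralis. Vastus intermedius stood above vastus lateralis in 5 of 5 animals without overlap (2.76 ± 0.44, SE; adjusted p = 1.37e-05). In the shank soleus was higher in 3 of 6 animals and lower in the other 3 (0.27 ± 0.40, SE; adjusted p = 0.594), and the pairs differed by -2.49 ± 0.59 (SE; adjusted p = 0.00866). E18.5 Frzb levels were 4.35, 8.34 and 15.0 in soleus, 10.2, 19.6 and 31.7 in vastus intermedius, 4.85, 7.16 and 10.2 in gastrocnemius and 8.52, 13.2 and 24.5 in vastus lateralis, with the thigh above the shank by 1.09 ± 0.23 (SE; adjusted p = 9.95e-04). Frzb changed by 1.77 ± 0.31 in soleus, 1.84 ± 0.39 in gastrocnemius, 1.96 ± 0.25 in vastus intermedius and -0.27 ± 0.41 in vastus lateralis. With total counts the rises in soleus and vastus intermedius remained past the threshold, the gastrocnemius rise did not, and vastus lateralis passed as a fall (-1.32).

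Sfrp1 (chr8:23411383-23449632), an antagonist that binds several Wnts, fell with log2 changes of -2.74 ± 0.34 in soleus, -2.50 ± 0.19 in gastrocnemius, -3.28 ± 0.19 in vastus intermedius and -1.77 ± 0.20 in vastus lateralis. Adult Sfrp1 levels were 3.65, 5.11 and 7.22 in soleus, 2.54, 3.97 and 5.42 in vastus intermedius, 3.45, 6.02 and 8.23 in gastrocnemius and 6.10, 15.1 and 20.4 in vastus lateralis, so that every vastus lateralis library stood above every vastus intermedius library (-1.77 ± 0.26, SE; adjusted p = 5.08e-06). Soleus and gastrocnemius differed by -0.11 ± 0.24 (SE; adjusted p = 0.720), and the pairs by 1.66 ± 0.35 (SE; adjusted p = 0.00422). With the left-out library under its label the vastus pair gave -0.78 and the pairs 0.65, neither past the threshold. E18.5 Sfrp1 levels were 14.6, 34.4 and 59.4 in soleus, 30.96, 41.4 and 48.04 in vastus intermedius, 24.4, 35.01 and 39.01 in gastrocnemius and 38.3, 49.8 and 53.8 in vastus lateralis. Sfrp2, a fibroblast product known from matrix repair, had E18.5 levels of 21.6, 27.4 and 42.6 in soleus, 20.1, 26.7 and 65.5 in vastus intermedius, 30.8, 43.2 and 45.5 in gastrocnemius and 18.47, 60.2 and 90.9 in vastus lateralis and adult levels of 0.853, 2.06 and 3.46 in soleus, 0.106, 0.222 and 1.54 in vastus intermedius, 0.123, 2.03 and 2.96 in gastrocnemius and 0.0639, 3.43 and 4.82 in vastus lateralis. Its stage changes were -3.90 ± 0.29 in soleus, -4.56 ± 0.34 in gastrocnemius, -6.10 ± 0.55 in vastus intermedius and -4.36 ± 0.51 in vastus lateralis. The adult slow to fast change of -1.14 ± 0.48 (SE; adjusted p = 0.0420) was lost without animal A, D or F, and turned to 0.55 with the left-out library.

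Sfrp5, an antagonist secreted by fat cells, was higher in slow-biased adult muscle (1.02 ± 0.34, SE; adjusted p = 0.0102), a call lost with the left-out library under its label (0.90; adjusted p = 0.0500063). Adult Sfrp5 levels were 6.74, 8.24 and 17.3 in soleus, 4.50, 10.7 and 16.4 in vastus intermedius, 0.211, 4.73 and 12.6 in gastrocnemius and 2.37, 4.63 and 6.95 in vastus lateralis, against 0.599, 2.47 and 3.33 in soleus, 0.531, 2.63 and 11.05 in vastus intermedius, 1.45, 2.63 and 7.35 in gastrocnemius and 1.03, 1.47 and 2.31 in vastus lateralis at E18.5. Adipocyte markers had summed adult levels of 1.32 to 479 CPM and were at or under 0.378 CPM in all E18.5 libraries of soleus, vastus intermedius and gastrocnemius, with up to 29.2 CPM in vastus lateralis. In the adult 0 of 6 adipocyte markers passed between slow-biased and fast-biased muscle (edgeR; 0 at an unadjusted p under 0.05), and their part in the Sfrp5 values was not tested. Sfrp4, with group means of 5.51 to 9.95 CPM, passed in no edgeR comparison with TMM. With total counts it passed as a fall from E18.5 to adult in soleus (-0.67), vastus intermedius (-1.21), gastrocnemius (-1.60) and vastus lateralis (-1.64).

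Dkk3 and Dkk2, the Dickkopf members above 1 CPM, took opposite sides. Dkk3 (chr7:112116019-112159482), a divergent family member without the clear Lrp6 inhibition of the others, was a gene of fast-biased adult muscle. Adult Dkk3 levels were 2.27, 2.94 and 4.36 in soleus, 0.888, 4.24 and 6.42 in vastus intermedius, 16.03, 22.7 and 28.1 in gastrocnemius and 14.8, 80.1 and 138 in vastus lateralis. Vastus lateralis held 52.7, 108, 14.8, 30.0, 126 and 138 CPM in animals A to F, the widest spread of any group of this gene, yet each value was above all slow-biased adult libraries. The slow to fast change was -3.59 ± 0.33 (SE; adjusted p = 1.21e-09). At E18.5 the value was 0.32 ± 0.19 (SE; adjusted p = 0.586), and Dkk3 was lower in the thigh (-0.91 ± 0.19, SE; adjusted p = 9.31e-04), with levels of 26.4, 31.5 and 43.3 in soleus, 7.94, 9.02 and 27.1 in vastus intermedius, 13.1, 17.3 and 32.8 in gastrocnemius and 10.7, 13.5 and 21.4 in vastus lateralis. Stage changes were -3.39 ± 0.19 in soleus, 0.20 ± 0.19 in gastrocnemius, -1.79 ± 0.45 in vastus intermedius and 2.45 ± 0.44 in vastus lateralis. The rise in vastus lateralis passed with total counts too (1.41), and the gastrocnemius value, which had not passed, became -0.90 and passed as a fall.

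Dkk2, an antagonist acting on Lrp5 and Lrp6, was a soleus gene in the adult. Adult Dkk2 levels were 37.3, 40.9 and 60.7 in soleus, 12.5, 13.9 and 25.9 in vastus intermedius, 7.80, 12.6 and 20.4 in gastrocnemius and 5.52, 16.4 and 18.7 in vastus lateralis, with each soleus library above all fast-biased and vastus intermedius ones. Soleus exceeded gastrocnemius by 1.85 ± 0.27 (SE; adjusted p = 3.07e-06), whereas the vastus pair gave 0.28 ± 0.28 (SE; adjusted p = 0.413). The difference of the pairs (1.57 ± 0.38, SE; adjusted p = 0.0106) did not pass without animal A, B or D. E18.5 Dkk2 levels were 8.98, 15.97 and 44.99 in soleus, 8.89, 24.6 and 58.3 in vastus intermedius, 33.2, 37.1 and 43.9 in gastrocnemius and 14.5, 31.8 and 70.5 in vastus lateralis, and gastrocnemius was the tightest group. The stage changes were 1.09 ± 0.31 in soleus, -1.55 ± 0.18 in gastrocnemius, -0.81 ± 0.43 in vastus intermedius and -1.45 ± 0.40 in vastus lateralis. The soleus rise became 0.38 with total counts and no longer passed (adjusted p = 0.272), and vastus intermedius passed as a fall (-1.58).

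Axin2, a scaffold of the destruction complex and a direct feedback target of beta-catenin signalling, was higher in slow-biased adult muscle. Adult Axin2 levels were 23.7, 33.9 and 46.3 in soleus, 14.3, 27.7 and 34.9 in vastus intermedius, 9.07, 20.2 and 25.4 in gastrocnemius and 6.99, 12.6 and 14.03 in vastus lateralis. Soleus was higher than gastrocnemius in 6 of 6 animals and vastus intermedius than vastus lateralis in 5 of 5, with a slow to fast change of 0.99 ± 0.17 (SE; adjusted p = 1.38e-05). E18.5 Axin2 levels were 27.97, 31.9 and 42.6 in soleus, 16.5, 33.4 and 57.2 in vastus intermedius, 11.6, 22.3 and 24.4 in gastrocnemius and 18.3, 22.7 and 33.1 in vastus lateralis. At this stage soleus stood above gastrocnemius without overlap and the slow to fast change was 0.65 ± 0.17 (SE; adjusted p = 0.0922), which passed with DESeq2 (adjusted p = 0.0148) and with the replicate block (adjusted p = 0.0309), and without animal B (adjusted p = 0.0368). The contrast did not pass as different between the stages (0.31 ± 0.25, SE; adjusted p = 0.301).

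Thigh and shank were compared as a second axis. At E18.5, 3 of 34 members were higher in the thigh (Wnt4, Frzb and Wnt11; background 14.1%) and 7 lower (Wnt6, Dkk3, Fzd3, Fzd1, Wnt5b, Fzd8 and Fzd2; background 10.7%), against 24.8% in either direction. The falls other than Wnt6, Dkk3 and Fzd3 were small, from -0.31 for Fzd2 to -0.41 for Fzd1. In the adult 3 of 32 were higher (Wnt4, Dkk3 and Fzd7; background 11.6%) and 10 lower (background 7.55%), led by Rspo3 (-1.60 ± 0.28, SE; adjusted p = 2.36e-04) and Wnt5b (-1.25 ± 0.35, SE; adjusted p = 0.0134), against 19.1% in either direction; Wnt16 was also called lower, with the thigh mean resting on a muscle at 0. Member medians were -0.09 at E18.5 and -0.23 in the adult, against -0.03 and -0.01 over all genes. Without adult animal E the adult count was 5, without F it was 7 and without B it was 8, and with the left-out library it was 7. Of the 13 adult calls, those of Dkk3 (animal A, B or E), Fzd7 and Fzd4 (B, D, E or F), Fzd10 (B, C, E or F), Axin2 (B, E or F), Dkk2 and Wnt5b (E or F) were lost when such an animal was left out, and that of Fzd5 without any 1 of the animals A to F. The E18.5 calls of Fzd1 (A or C), Wnt5b (A or F) and Wnt6 (A, B, D or F) were lost likewise. With total counts 3 members were higher (background 8.66%) and 11 lower (36.2%) at E18.5. In the adult 2 were higher (background 3.62%) and 13 lower (20.5%). The medians over all genes were then -0.17 at E18.5 and -0.16 in the adult. Fibre type markers moved with the adult contrast: 6 of 6 slow fibre markers were lower in the thigh (median -4.97) and 4 of 5 fast fibre markers higher (2.75), while 4 of 7 tendon markers were lower at both stages. At E18.5, 4 of 5 fast fibre and 5 of 7 skeletal muscle markers were higher in the thigh. Their part was not tested. Wnt4 was higher in the thigh at both stages. Any difference among the 4 muscles passed for 25 of 32 adult members (background 65.4%) and 11 of 34 at E18.5 (background 17.7%), the latter 6 without animal A or C and 7 without animal D.

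Between the stages, 11 members fell in all 4 muscles: the receptors Fzd1, Fzd2, Fzd3, Fzd5, Fzd8 and Fzd10, the modulators Sfrp1, Sfrp2, Rspo2 and Lgr5, and the ligand Wnt5a (background 31.1% of genes lower in all 4, 57.3% the same way in all 4). The largest mean falls over the muscles were those of Rspo2 (-4.98), Sfrp2 (-4.73) and Lgr5 (-4.72). A set of 7 members rose in some muscles and fell in others: Dkk2, Dkk3, Fzd6, Rspo3, Wnt4, Wnt5b and Wnt16 (share over all genes not computed). With total counts the first set still fell in all 4 muscles; with the left-out library under its label the vastus intermedius falls of Lgr5 and Sfrp2, and that of Wnt4, did not pass. Of the second set Dkk3, Rspo3 and Wnt16 still rose in a muscle with total counts. The soleus rise of Fzd6 was lost in 11 of its alternatives, among them each of adult animals B to F and E18.5 animals C to F left out. Its vastus lateralis fall was lost without adult animal A, B, C or E and without E18.5 animal B or E. Its vastus intermedius rise became 0.16 with total counts and no longer passed. In soleus 11 of 34 members rose and 15 fell (background 36.3% and 39.7%, 76% in either direction). The vastus intermedius counts were 12 and 13 (36.9% and 39.2%, 76.1%). The gastrocnemius counts were 10 and 17 (38.2% and 44%, 82.2%). The vastus lateralis counts were 7 and 18 of 33 (36.4% and 42.6%, 79%). Member medians were -0.03, -0.41, -0.81 and -1.07, against -0.06, -0.04, -0.12 and -0.15 over all genes. With total counts the medians over all genes moved to -0.75, -0.80, -1.21 and -1.20. The rises and falls became 6 and 22 (background 18.9% and 62%), 3 and 22 (17.5% and 64.2%), 1 and 24 (16.2% and 72.6%), and 2 and 26 (14.3% and 71.7%). Adult and E18.5 libraries did not overlap for 19, 16, 21 and 21 members in these muscles. No share of all genes without overlap was computed, and most genes were called between the stages.

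**Figure D5:**
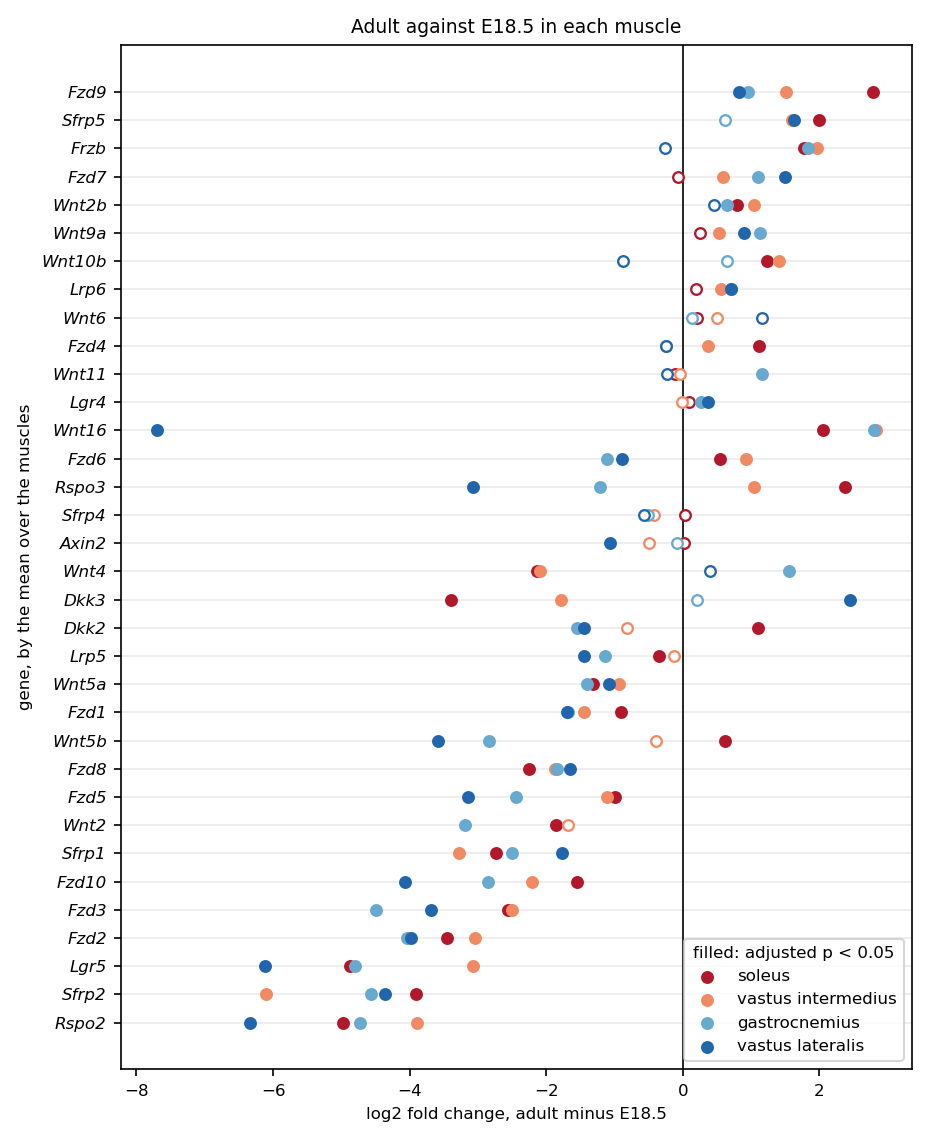
Log2 fold change of adult against E18.5 in each muscle (4 colours), members ordered by their mean over the muscles; filled points passed an adjusted p of 0.05, with TMM scaling. Members at the bottom, Rspo2, Sfrp2, Lgr5 and Fzd2, fell in all 4 muscles, Fzd9 at the top rose in all 4, and Wnt16, Rspo3, Wnt4 and Dkk3 spread to both sides of 0; the vastus lateralis value of Wnt16 is a fitted one against no counts.

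The rest of the pathway, from a list written beside the members, did not move as 1 block. Of 59 such genes tested in the adult, 30 were higher (background 35.9%) and 17 lower (background 30.1%) in slow-biased muscle, with a median of 0.33 against 0.08 over all genes. Receptors and coreceptors had 8 higher and 2 lower of 11 (median 0.83) and planar polarity genes 7 and 1 of 8 (0.75). The relay and destruction complex, the proteins inside the cell, ran the other way with 3 higher and 8 lower of 14 (-0.21), which with total counts became 6 and 2 (0.12, against 0.41 over all genes). Nuclear genes had 4 higher and 2 lower of 11 (-0.05). The whole list had 40 higher (background 58.5%) and 7 lower (background 13.8%) with total counts. At E18.5, 1 of 64 was higher (Tnfrsf19; background 0.146%) and 0 lower by edgeR, with a median of 0.02. Genes past a log2 change of 1 were the secreted or surface antagonists Draxin (2.46 ± 0.44), Sostdc1 (2.66 ± 0.56) and Kremen1 (1.67 ± 0.11), the transcription factor Lef1 (2.68 ± 0.51), the R-spondin receptor Lgr6 (1.91 ± 0.46), the agrin receptor Lrp4 (1.02 ± 0.11), the polarity genes Celsr1 (1.71 ± 0.38), Vangl1 (1.14 ± 0.16) and Vangl2 (1.39 ± 0.35), and Dact1 (1.09 ± 0.15), all higher. Lower past that size were the Wnt receptor Ryk (-1.10 ± 0.06) and the antagonist Apcdd1 (-1.47 ± 0.25). From E18.5 to adult 41 of these genes fell in each muscle and 12 or 13 rose with TMM scaling (of 59 to 61 tested; background 39.2% to 44% lower and 36.3% to 38.2% higher), with medians of -1.02 to -1.37. With total counts 47 to 52 fell (background 62% to 72.6%) and 2 to 4 rose (background 14.3% to 18.9%), with medians of -1.71 to -2.46.

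Cell type markers differed along the same axis, in both directions (background 35.9% of genes higher and 30.1% lower). All 6 slow fibre markers were higher in slow-biased adult muscle, 4 of 5 fast fibre markers were lower and 1 higher, and 5 of 7 skeletal muscle markers were lower and 2 higher. Beside the 7 endothelial and 6 satellite cell markers, 7 of 7 pericyte and smooth muscle markers, 6 of 7 leukocyte markers, 6 of 10 fibroblast markers, 5 of 7 Schwann cell markers and 4 of 7 tendon markers were higher in slow-biased adult muscle, and 1 Schwann cell marker was lower. Pericyte and smooth muscle markers summed to 405 to 697 CPM in slow-biased and 148 to 414 CPM in fast-biased adult libraries. Of 9 cartilage and bone markers, 4 were at 0 in all adult gastrocnemius libraries. Their part in the members' differences was not tested.

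In the authors' deposited table for slow-biased against fast-biased adult muscle, 19 of the 34 members were called higher and 9 lower, and in the authors' deposited table for E18.5, 3 were called higher and 0 lower. In the authors' deposited table for thigh against shank, 0 adult members were called higher and 1 lower, against 3 and 6 at E18.5. The edgeR fits differed in the adult, with 3 higher and 10 lower, and gave 3 and 7 at E18.5. Shares over all genes in the authors' tables were not computed. Exons of 7 members overlap an annotated gene on the opposite strand (Axin2, Fzd5, Fzd6, Rspo3, Sfrp2, Wnt5a and Wnt11), by 17.8% of the exon length for Fzd5, 16.1% for Sfrp2 and 13.1% for Rspo3. No source used here states whether counting used strand, and reads of these overlaps may belong to either gene.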

How the data were processed

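RNA from whole muscles (RNA integrity number over 7, per the labels) was sequenced after poly(A) selection and random priming. Per the submitters' processing notes, reads were handled with STAR 2.7.11, Trimmomatic 0.39.0, FastQC 0.11.5, DESeq2 1.44.0 and Subread 2.0.6 (featureCounts), with the mouse build mm10; no source used here gives their parameters. The authors deposited raw counts per gene for 48 libraries and 9 tables of their own comparisons, with log2 fold changes and adjusted p-values per the file headers. Gene identifiers were matched to symbols through those deposited tables for 46 members and through RefSeq for Wnt3a. Gene positions are those of RefSeq (GRCm38.p6), and gene lengths are those deposited with the counts. Exon overlaps were taken from GENCODE vM21.

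Counts were tested with edgeR 4.0.16 in R 4.3.3 (TMM, filterByExpr, quasi-likelihood F test, Benjamini-Hochberg adjustment over all genes tested, threshold 0.05). The 4 muscles of a stage shared 1 fit, stages were compared within each muscle, and the stage difference used all 47 libraries. Each SE of an edgeR fold change was taken as its absolute log2 value divided by the square root of the F statistic. It is not a standard error returned by the fit, and is approximate for members with low counts. Members with an absolute log2 change of 1 in a called comparison are given in full. The members, the pathway list and the marker lists were chosen with earlier results of these data known. Alternatives were DESeq2 1.42.0, its size factors, no count filter, a replicate block, each animal left out, the left-out library restored and, added after the scaling factors were seen, total counts without TMM. The 4 libraries with the same collection tag were taken as 1 animal, which no source used here states: each of 6 tags per stage occurs once in each muscle, and the labels give 6 animals per stage. Deviations from the group means correlated at a mean r of 0.129 (E18.5) and 0.0672 (adult) within a tag, against -0.0259 and -0.0135 between tags, with single pairs down to -0.132 and -0.0669. Levels of 3 counts and the interval on a count ratio cover counting error only. No pair of libraries in a group agreed within sampling noise. The tests were checked on simulated counts.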

Additional observations from a re-analysis of the deposited data

Results flagged for a closer look

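The slow to fast difference changed between E18.5 and adult muscle for 24 members by the interaction test (edgeR, adjusted p under 0.05). On the log2 scale the difference was more positive in the adult for Dkk2 (1.61), Frzb (1.06), Fzd1 (0.48), Fzd10 (1.56), Fzd2 (0.73), Fzd3 (1.55), Fzd4 (0.96), Fzd5 (1.72), Fzd6 (1.71), Fzd9 (1.22), Lrp5 (1.02), Rspo3 (3.81), Wnt10b (1.41), Wnt16 (4.88), Wnt2 (1.90) and Wnt5b (3.31). It was more negative for Dkk3 (-3.94), Fzd7 (-1.08), Fzd8 (-0.35), Lgr4 (-0.30), Lrp6 (-0.36), Sfrp1 (-0.91), Wnt4 (-3.11) and Wnt9a (-0.66). The Fzd8 call was lost in 13 alternatives, DESeq2, its size factors, no count filter and the left-out library among them, the Wnt10b call in 8 and the Wnt2 call in 4, the replicate block among both. Other calls were lost without E18.5 animal B (Frzb), without adult animal C (Fzd1 and Lrp6), with the left-out library (Sfrp1) and with total counts (Lgr4, Lrp6 and Sfrp1). The values of Fzd8, Lgr4 and Lrp6 turned positive with total counts, and the fitted Wnt16 value rests on a muscle with no counts.

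The soleus to gastrocnemius difference and the vastus intermedius to vastus lateralis difference parted in the adult for 5 members. The first minus the second was 1.57 for Dkk2, 0.88 for Fzd9, 1.66 for Sfrp1, -2.49 for Frzb and -9.72 for Wnt16, the last a fitted value against no counts.

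A single library stood far from the rest of its group, by Dixon's criterion at the 95% level, in 33 of 271 groups of member values (12.2%). Chance gives about 1 in 20 only for normally distributed values. The CPM were not log-transformed and some groups held few counts, so the observed share cannot be read against that rate. These 33 values came from 21 libraries, and no library gave more than 4 of them. Values are in CPM, against the range of the group's other libraries. In adult vastus intermedius they were Dkk2 in animal C (highest, 25.9 against 12.5 to 14.6), Fzd1 in animal C (highest, 9.55 against 4.21 to 5.30), Lgr5 in animal F (highest, 0.777 against 0 to 0.219), Lrp5 in animal E (lowest, 71.9 against 94.8 to 98.1), Sfrp2 in animal C (highest, 1.54 against 0.106 to 0.374) and Wnt10b in animal A (highest, 3.97 against 1.11 to 1.92). In E18.5 gastrocnemius they were Dkk3 in animal C (highest, 32.8 against 13.1 to 19.04), Fzd3 in animal F (highest, 24.7 against 10.6 to 13.0) and Lgr5 in animal F (highest, 4.95 against 1.43 to 2.08). In adult gastrocnemius they were Fzd1 in animal F (highest, 8.80 against 5.99 to 6.67) and Lgr5 in animal D (highest, 0.286 against 0 to 0.0814). In adult vastus lateralis they were Fzd1 in animal B (highest, 6.95 against 3.87 to 4.47), Lgr5 in animal C (highest, 0.0984 against 0 to 0), Lrp6 in animal D (lowest, 113 against 139.6 to 155), Rspo2 in animal B (highest, 0.224 against 0 to 0), Wnt2 in animal B (highest, 0.560 against 0 to 0.148) and Wnt5b in animal D (highest, 1.25 against 0 to 0.448). In E18.5 vastus intermedius they were Fzd1 in animal F (highest, 23.3 against 13.3 to 15.2), Sfrp4 in animal F (highest, 19.7 against 2.89 to 8.46), Sfrp5 in animal C (highest, 11.05 against 0.531 to 3.80), Wnt2 in animal F (highest, 4.28 against 0.254 to 1.45) and Wnt5a in animal F (highest, 36.3 against 16.8 to 23.1). In adult soleus they were Fzd3 in animal A (highest, 5.40 against 1.28 to 2.05), Fzd5 in animal E (lowest, 5.65 against 8.10 to 9.53), Fzd7 in animal A (highest, 104 against 29.2 to 55.7), Lrp6 in animal F (highest, 116 against 88.6 to 96.8), Sfrp5 in animal A (highest, 17.3 against 6.74 to 8.58) and Wnt11 in animal D (highest, 10.6 against 4.93 to 6.96). In E18.5 soleus they were Fzd3 in animal B (highest, 19.6 against 9.11 to 12.8), Wnt5a in animal A (highest, 39.7 against 21.4 to 27.7) and Wnt5b in animal F (highest, 6.98 against 5.39 to 5.96). In E18.5 vastus lateralis they were Sfrp1 in animal E (lowest, 38.3 against 49.7 to 53.8) and Wnt10b in animal E (highest, 2.91 against 0.116 to 1.02).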

How the results depend on the processing

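Of 6693 values of single members under an alternative, 6370 kept their direction and their side of the threshold, 186 lost and 107 gained a call, and 30 turned in direction. The scaling mattered most. With total counts the adult minus E18.5 values turned negative in soleus for Axin2 (-0.66), Fzd6 (-0.16), Lgr4 (-0.60), Lrp6 (-0.49), Sfrp4 (-0.67), Wnt5b (-0.066) and Wnt9a (-0.44), in vastus intermedius for Fzd4 (-0.40), Fzd7 (-0.19), Lrp6 (-0.21) and Wnt9a (-0.23), in gastrocnemius for Dkk3 (-0.90), Fzd7 (-0.000222), Fzd9 (-0.14), Lgr4 (-0.83), Lrp6 (-0.39) and Wnt2b (-0.45), and in vastus lateralis for Fzd9 (-0.23), Lgr4 (-0.69), Lrp6 (-0.33), Wnt4 (-0.65) and Wnt9a (-0.15). The adult slow to fast values turned positive for Fzd8 (0.044) and Lgr4 (0.00844), the soleus to gastrocnemius value for Lgr4 (0.15), and the stage difference for Fzd8 (0.038), Lgr4 (0.070) and Lrp6 (0.00723). With the left-out library, Sfrp2 turned to 0.55 in the adult slow to fast comparison and to 0.89 between vastus intermedius and vastus lateralis; the adult thigh to shank count fell from 13 to 7 and the adult difference of the pairs from 5 to 1. The replicate block, which pairs muscles by collection tag, gave 8 for the difference of the pairs and 3 for slow to fast at E18.5, and DESeq2 gave 8 and 3. The block also moved the calls of Fzd4, Lrp6 and Sfrp5 between the vastus muscles, of Wnt2, Wnt10b and Wnt11 in the stage difference, and of Lgr5 and Wnt6 between thigh and shank at E18.5. Leaving out an animal gave 6 to 12 members for any difference at E18.5, 3 to 7 for the adult difference of the pairs, 0 to 4 for slow to fast at E18.5, 0 for soleus to gastrocnemius at E18.5, 5 to 12 for thigh to shank in the adult, and 0 to 1 between the vastus muscles at E18.5. The causes were not tested. Depth limits the low members: in the adult fast-biased muscles Lgr5 held 0 to 4 and Rspo2 0 to 5 counts per library, each at 0 in 5 of 6 vastus lateralis libraries.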
